A study of Mus musculus with 77 samples.

Results

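Di-n-octyl phthalate (DNOP) is a phthalate ester with linear octyl chains. The comparison described here sets 4 liver samples labelled DNOP at 2.5K, that is 2500 ppm, against 10 phthalate controls at 0 ppm, out of 77 samples in the study. Samples were chosen by their labels alone, and all genes were tested. All samples were livers of male B6C3F1 mice, a hybrid strain, exposed for 7 days, and the study asked at which doses phthalates of different receptor activity begin to change the liver. The labels give neither the age of the mice nor the medium that carried the dose. Nothing in them ties a sample to an animal of its own, and each p-value rests on differences between samples that may in part be technical. The 10 controls carry only 4 label numbers (32, 45, 63 and 75), whose meaning the labels do not give, while the 4 DNOP samples carry a number each.

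Phthalate monoesters formed in the gut and liver can activate PPARA, a nuclear receptor that hepatocytes use to sense fatty acids. PPARA pairs with RXR and binds repeats of a short DNA element near genes of fatty acid oxidation, among them the Cyp4a omega hydroxylases, acyl-CoA thioesterases and enzymes of peroxisomal beta-oxidation. In rodents a sustained activation enlarges the peroxisome compartment. A second receptor, CAR, responds to drugs such as phenobarbital and controls other cytochromes P450 and export pumps.

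RNA was measured on 1-colour Illumina bead arrays with 1 value per gene, and levels are given as log2 intensity after background correction and quantile normalization. Between 43.53% and 45.04% of array genes were detected per DNOP sample, against 41.9% to 45.4% per control. Before correction the mean signal was 346 to 520 in the DNOP samples and 209 to 471 in the controls. DNOP replicate 1 had the highest mean signal of all 77 samples. A gene was detected where its signal passed the negative control beads at a detection p under 0.05. The 10 hepatocyte markers tested had mean levels of 10.75 to 10.997 in the DNOP samples and 10.81 to 11.29 in the controls, so the arrays carried liver RNA. None of the 11 lists of cell type markers held a called gene, beside 0.238% of all genes tested (limma). Their median log2 changes lay between −0.29 and 0.27 (−0.48 and 0.14 without the 3 controls numbered 32). Of the 3 skeletal muscle genes tested, Tnni2 was at 9.59 and Mylpf at 8.52 in control replicate 5. In all other DNOP and control samples they were at 4.33 to 4.70 and 4.29 to 4.84. The cause of this was not tested. Fewer cells of a type and less RNA per cell cannot be told apart in such bulk samples. The controls differed among themselves. Controls 1 to 3, those numbered 32, had a mean level of 10.98 to 11.09 over 6 omega hydroxylases, above the 8.57 to 9.98 of the other 7. Values that moved without them are therefore given in both ways. They were set apart with earlier results of these data in view that had shown these high levels, so a gain of PPARA targets without them is no separate support.

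Against all 10 controls, 27 of 11324 genes were called changed (limma, Benjamini-Hochberg adjusted p under 0.05), which is 0.238% of those tested. Of these, 6 were higher in the DNOP samples (0.053%) and 21 were lower (0.185%). The rises were led by the fatty acid omega hydroxylase Cyp4a12b, the export pump Abcc3 and the fatty aldehyde dehydrogenase Aldh3a2, each by 2.32-fold to 2.97-fold. The falls were led by the selenoprotein Selenow and the inositol phosphate kinase Ip6k2, at 3.30-fold and 3.11-fold lower. At an unadjusted p under 0.05, 488 genes were higher (4.31%) and 492 lower (4.34%), and the median log2 change over all genes was 0.003. Without the controls numbered 32, 58 genes were called (0.512%), 23 higher (0.203%) and 35 lower (0.309%), and 26 of the 27 were among them with the same direction. The exception was Trim23, which had an adjusted p of 0.0505 in limma without those controls.

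**Figure D1:**
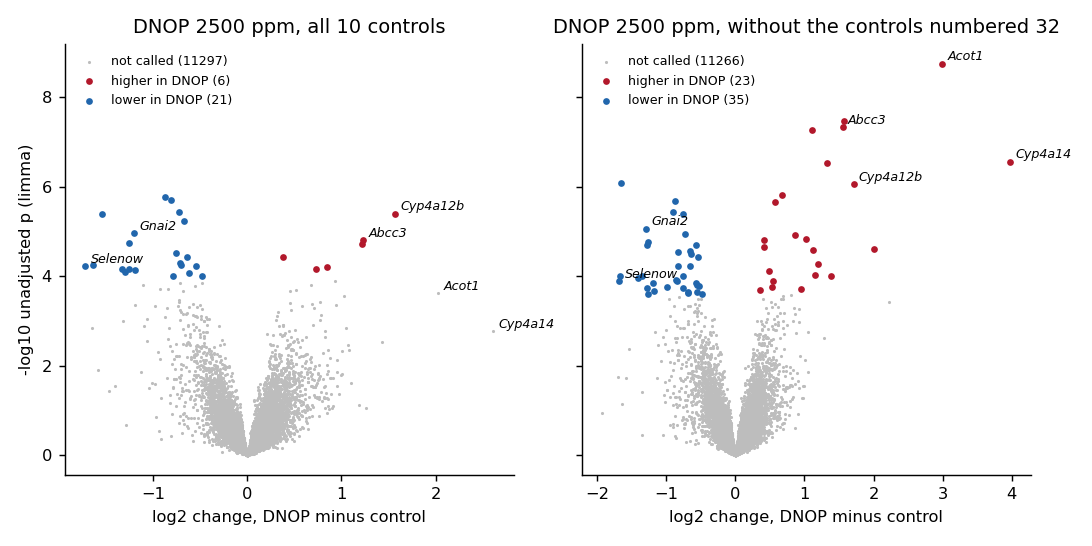
Each point is 1 of 11324 genes, with the log2 change (DNOP 2500 ppm minus phthalate control) on the x axis and −log10 of limma's unadjusted p on the y axis, against all 10 controls on the left and without the 3 numbered 32 on the right. With all controls 6 genes were called higher and 21 lower, and without those 3 controls 23 and 35, with Cyp4a14 and Acot1 passing only on the right.

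The number of calls rested on single samples. Without DNOP replicate 1, 2, 3 or 4 the number of called genes was 2, 7, 1 and 4 in that order, and no call held in all of these fits. Without control replicate 1 it was 54, and all 27 genes were among them. Without control replicate 4, 9 or 10 it was 12, 11 and 11. With the mean of the samples that share a number in place of the samples, 15 genes were called, 13 of them among the 27. In that fit Selenow, Abcc3, Ip6k2, Ap2a1, Pym1, Gm5347 and Scaf1 missed the threshold at adjusted p of 0.0509 to 0.0762 (limma). Get3, Sf3a2, Olfr1034, Spata22, Trim23, Tmsb10 and N6amt1 missed it at 0.107 to 0.163. With only the 2 groups in the fit 13 of the 27 held, and Cyp4a12b, Aldh3a2 and Abcc3 missed it (adjusted p = 0.0731, 0.118 and 0.158). Of the 27, 19 had groups of samples that did not overlap, 3 of the 6 rises and 16 of the 21 falls, where 0.627% and 0.689% of all genes did so in these directions.

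Cyp4a12b, which adds a hydroxyl group to the far end of fatty acids, had levels of 10.15, 9.98, 10.13 and 10.09 in the DNOP samples, against a lowest of 7.35, a median of 8.33 and a highest of 9.96 in the controls. The 4 DNOP samples lay within a narrow band just above the highest control, replicate 1, and well above the other 9. The gene rose by 1.57 on the log2 scale (SE 0.311, 2.97-fold; limma adjusted p = 0.00945), and by 1.71 without the controls numbered 32 (adjusted p = 0.00126). With the replicate number of the labels as a block the change was 1.597 and missed the threshold (adjusted p = 0.0598). Its near copy Cyp4a12a had a change of 0.25 (adjusted p = 0.477), and a bead may read both.

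Aldh3a2, which oxidizes long-chain fatty aldehydes, had levels of 11.88, 11.57, 11.89 and 11.44 in the DNOP samples, against a lowest of 9.79, a median of 10.34 and a highest of 11.55 in the controls. Only the controls numbered 32, at 11.45, 11.05 and 11.55, came near the DNOP samples, and the groups overlapped through them. The gene rose by 1.21 (SE 0.262, 2.32-fold; limma adjusted p = 0.0212), and by 1.57 without those controls (2.97-fold, adjusted p = 0.000153). With each array centred on its median the change was 1.43 and missed the threshold (adjusted p = 0.0668).

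Abcc3, which pumps conjugates out of hepatocytes into blood and is also a target of CAR, had levels of 10.15, 9.80, 9.21 and 9.35 in the DNOP samples, against a lowest of 7.66, a median of 8.44 and a highest of 9.57 in the controls. DNOP replicates 1 and 2 were above all controls, and replicates 3 and 4 were below the highest control. The gene rose by 1.23 (SE 0.262, 2.34-fold; limma adjusted p = 0.0212), and by 1.55 without the controls numbered 32 (adjusted p = 0.000153). With the mean of the samples that share a number it missed the threshold (adjusted p = 0.0648). It was the 1 called gene among 34 tested CAR and PXR targets, beside 0.238% of all genes tested. The median change of these 34 was 0.17. Cyp2b10, the best known CAR target in mouse liver, had a mean of 4.38 in the DNOP samples and 4.40 in the controls. These levels are close to background, so they tell little about a change. Of the 34 genes, 6 were detected in none of the DNOP samples or controls.

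The other called rises were of genes outside the pathway lists. Trim23, a ubiquitin ligase with an ARF domain, had levels of 5.94, 5.80, 5.80 and 5.75 in the DNOP samples, against 4.49 to 5.30 in the controls. It rose by 0.85 on the log2 scale (limma adjusted p = 0.0362). Its signal was above background in all 4 DNOP samples but in 3 of 10 controls, so no fold is given. Spata22, known for a role in meiosis, rose by 0.73 (adjusted p = 0.0362) with no overlap of the groups. Olfr1034, an olfactory receptor gene close to background, rose by 0.38 on the log2 scale (adjusted p = 0.033) with overlap, was detected in 3 of 4 DNOP samples and 1 of 10 controls, and with the replicate block it missed the threshold (adjusted p = 0.143).

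**Figure D2:**
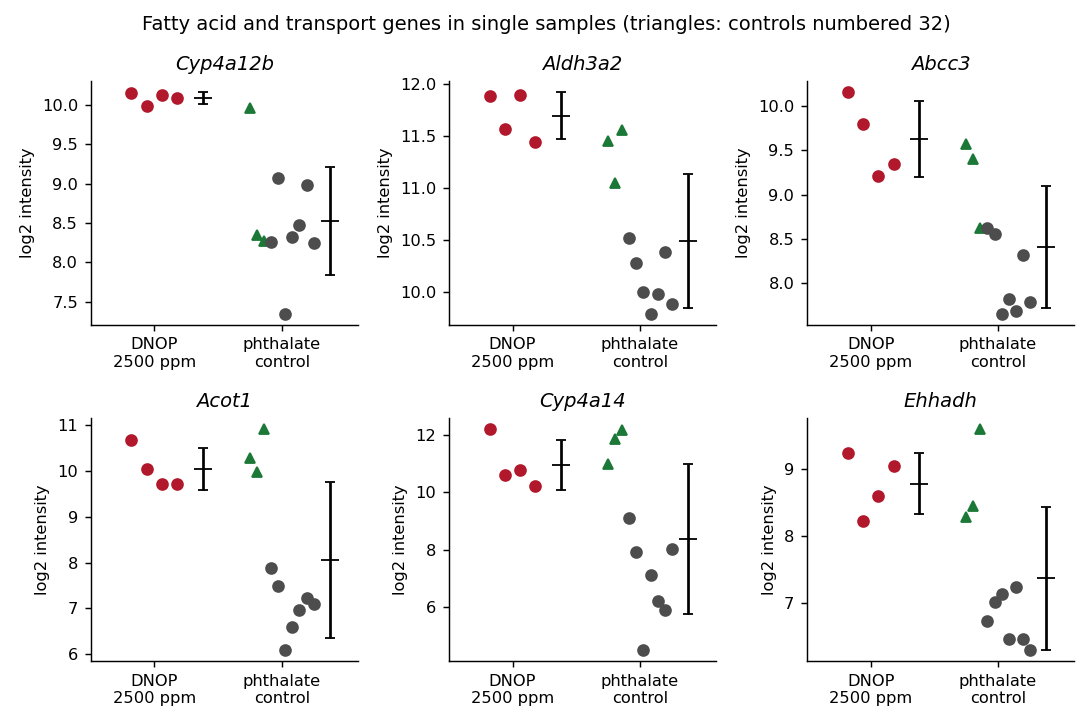
The log2 intensity (y axis) of 6 genes is shown in single samples, with DNOP 2500 ppm on the left of each panel and the phthalate controls on the right, where triangles mark the 3 controls numbered 32 and bars give the mean and SD of the whole group. Cyp4a12b stood above all controls in all 4 DNOP samples, while for Acot1, Cyp4a14 and Ehhadh the 3 triangles lay at the level of the DNOP samples and the other 7 controls below them.

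Most known PPARA targets on the array did not pass the test against all 10 controls. Cyp4a14, an omega hydroxylase widely read as a marker of PPARA in mouse liver, had levels of 12.21, 10.59, 10.77 and 10.24 in the DNOP samples, against a lowest of 4.50, a median of 7.97 and a highest of 12.16 in the controls. The 3 controls numbered 32, at 10.996, 11.87 and 12.16, were as high as the DNOP samples, and the other 7 were all lower, at 4.50 to 9.09. The change was 2.62 (SE 0.797; limma adjusted p = 0.183) against all controls and 3.98 (SE 0.686, 15.7-fold; adjusted p = 0.000571) without those 3.

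Acot1, which frees fatty acids from coenzyme A in the cytosol, had levels of 10.69, 10.05, 9.73 and 9.72 in the DNOP samples, against a lowest of 6.08, a median of 7.37 and a highest of 10.93 in the controls. The controls again fell apart, into those numbered 32 at 9.99 to 10.93 and the others at 6.08 to 7.89. The change was 2.03 (SE 0.521; limma adjusted p = 0.0708) against all controls and 3.00 (SE 0.422, 7.98-fold; adjusted p = 2.03e-05) without those numbered 32. With the replicate block it was 2.12 and passed against all controls (adjusted p = 0.0308), as it also did without control replicate 1, 2 or 3 (adjusted p = 0.0208, 0.0492 and 0.0227). With the mean of the samples that share a number it was 2.16 and missed the threshold (adjusted p = 0.0671). The controls numbered 32 are the controls that carry replicate number 1 in the labels, so the replicate block can take up part of their difference. Passes with that block, here and below, are not separate from the handling of those controls. Nor are the passes without 1 of them.

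Among the enzymes of peroxisomal beta-oxidation, Ehhadh, the bifunctional enzyme, had levels of 9.24, 8.23, 8.59 and 9.04 in the DNOP samples, against a lowest of 6.30, a median of 7.08 and a highest of 9.59 in the controls. The overlap again lay with the controls numbered 32. The change was 1.43 (SE 0.46; limma adjusted p = 0.248) against all controls and 2.01 (4.02-fold; adjusted p = 0.0124) without them. Acaa1b, the peroxisomal thiolase, had a change of 0.78 (adjusted p = 0.100) and 1.12 (adjusted p = 0.000153) in these 2 fits. Ech1, which shifts double bonds of unsaturated fatty acids, had 0.52 (adjusted p = 0.0652) and 0.68 (adjusted p = 0.00195). Ech1 passed with the replicate block against all controls (adjusted p = 0.0379), and missed the threshold with the mean of the samples that share a number (adjusted p = 0.107).

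Retsat, a retinol saturase of the liver that PPARA controls, had levels of 12.48, 12.15, 12.10 and 11.67 in the DNOP samples, against a lowest of 10.30, a median of 10.98 and a highest of 12.25 in the controls. Its change was 0.94 (limma adjusted p = 0.103) against all controls, 1.33 (adjusted p = 0.000571) without those numbered 32, and 0.97 with the replicate block (adjusted p = 0.0206). Hsd17b11, a lipid droplet enzyme, had 1.03 (adjusted p = 0.0776), 1.20 (adjusted p = 0.0206) and 1.05 (adjusted p = 0.0117) in the same 3 fits. With the mean of the samples that share a number both missed the threshold (adjusted p = 0.126 for Retsat and 0.175 for Hsd17b11). An exact permutation test (two-sided) of 28 panel genes found none under an adjusted p of 0.05 against 10 controls, with a raw p of 0.012 for Abcc3. Against the 7 other controls 10 genes were under it, among them Cyp4a14, Acot1, Ehhadh, Retsat and Acaa1b, each at 0.00606, the smallest p that test allows (adjusted p = 0.0189). Abcc3 had the same p, and so did the methyltransferase Bhmt, which was lower (change −1.47 against all controls; limma adjusted p = 0.531). These 7 controls carry only 3 label numbers, and the test takes each as a sample of its own, so its p-values may be too small. The same holds for the 10 controls, which carry 4. The controls numbered 32 were left out with their high levels of PPARA targets known. For such targets the p-values against the other 7 are therefore no separate support.

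The gene lists of these pathways showed the same division. Of 6 tested omega hydroxylases 1 was called higher, beside 0.053% of all genes. Their median change was 0.72 against all controls and 1.03 without those numbered 32. None of 7 acyl-CoA thioesterases (median 0.20), 18 genes of peroxisomal fatty acid oxidation (median 0.26), 22 of mitochondrial fatty acid oxidation (median 0.18) or 14 of peroxisome assembly (median −0.04) was called in limma. At an unadjusted p under 0.05, 2, 6, 6 and 0 of them were higher, beside 4.31% of all genes. In 20 of the 22 mitochondrial genes the estimate was above 0, where the median over all genes was 0.003. Of these 22, only Acadl, the long-chain acyl-CoA dehydrogenase, was higher in each DNOP sample than in each control (change 0.70, adjusted p = 0.158), as were 0.627% of all genes. The lists were not tested as sets. Without the controls numbered 32, 2 thioesterases (Acot1 and Acot4) and 4 peroxisomal genes (Ech1, Acaa1b, Ehhadh and Slc27a2) were called higher, and none of the mitochondrial genes was. In that fit 0.203% of all genes were called higher. The 22 fasting and lipid targets of PPARA had a median change of −0.01 with none called. Without the controls numbered 32 their median was 0.25, with 1 called higher. The hormone Fgf21 had a change of −0.30 (adjusted p = 0.917) against all controls and 0.35 (adjusted p = 0.906) without those numbered 32. Pdk4, which restrains glucose oxidation, had 0.38 (adjusted p = 0.88) and 0.99 (adjusted p = 0.452) in these fits.

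**Figure D3:**
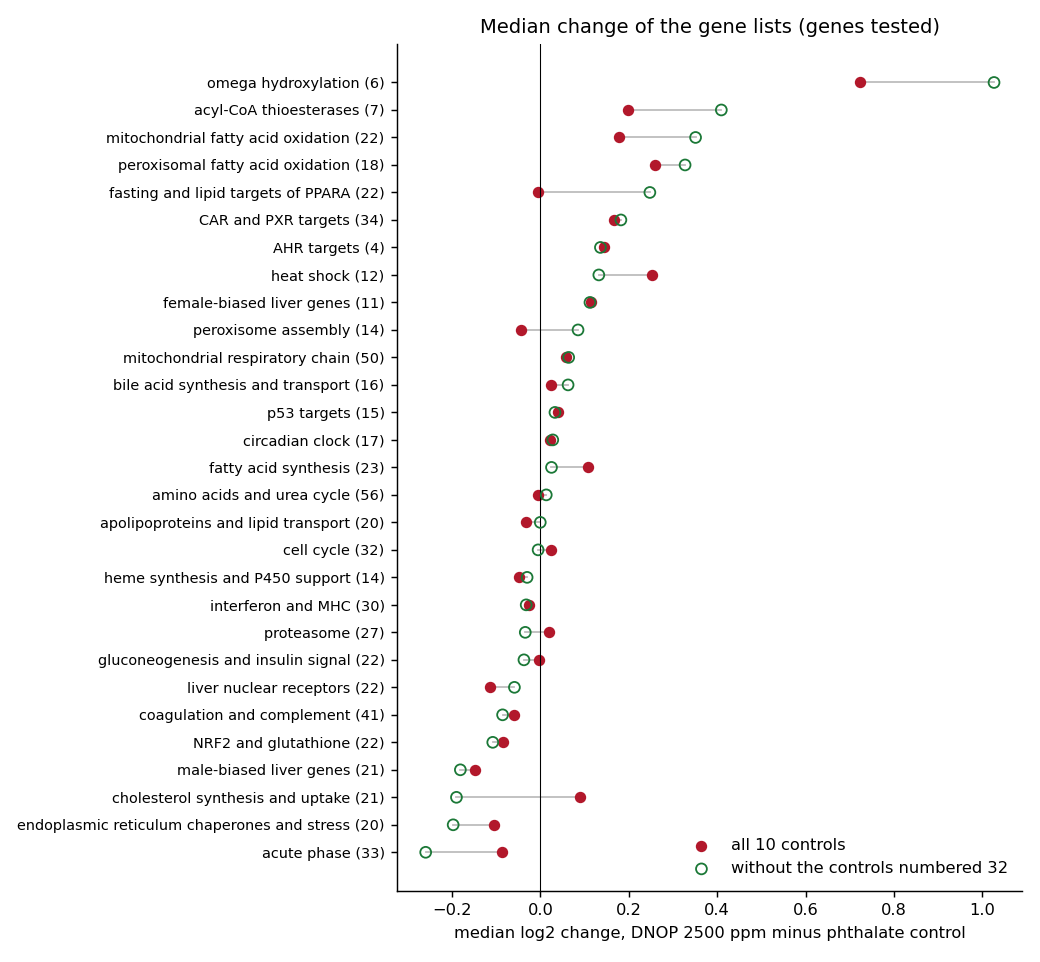
Each row is a gene list with the number of genes tested in brackets, and the x axis gives its median log2 change (DNOP 2500 ppm minus phthalate control), filled against all 10 controls and open without the 3 numbered 32. Omega hydroxylases had the highest median in both, at 0.72 and 1.03, and the median of the fasting and lipid targets of PPARA was −0.01 and 0.25.

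Promoters of 6 of these genes are in the RefSeq table, each running from 250 bases before to 50 bases after the start site (mouse build GRCm38.p6). They are those of Aldh3a2, Acot1, Ehhadh, Retsat, Acaa1b and Ech1. The half-site AGGTCA, to which PPARA and RXR bind as a repeat, was found, on either strand, in 0 of 6 windows, while 16.3% of 32851 promoters hold it. The repeat AGGTCANAGGTCA is in 0.0396% of them. The sequence CCAAT, the motif of the factor NF-Y, searched on both strands after these sequences had been read, was found in 4 of the 6 windows and in 37.4% of all promoters. Shown are the windows of the called gene Aldh3a2 (chr11:61267137-61267436, minus strand) and of the thioesterase Acot1 (chr12:84009252-84009551, plus strand), with CCAAT in capitals.
Aldh3a2: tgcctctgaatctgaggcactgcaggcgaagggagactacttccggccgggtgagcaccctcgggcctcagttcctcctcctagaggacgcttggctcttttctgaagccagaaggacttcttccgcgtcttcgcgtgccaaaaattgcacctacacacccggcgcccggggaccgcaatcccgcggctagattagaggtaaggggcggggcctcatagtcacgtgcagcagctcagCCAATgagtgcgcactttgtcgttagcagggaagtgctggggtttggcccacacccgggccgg
Acot1: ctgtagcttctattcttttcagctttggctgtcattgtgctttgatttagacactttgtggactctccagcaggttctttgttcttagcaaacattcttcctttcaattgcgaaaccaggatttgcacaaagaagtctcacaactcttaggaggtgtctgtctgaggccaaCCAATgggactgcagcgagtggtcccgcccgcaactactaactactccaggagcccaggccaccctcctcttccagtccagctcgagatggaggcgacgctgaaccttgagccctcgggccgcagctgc

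The falls were the larger group, and none of the pathway lists held one of them, where 0.185% of all genes were called lower. Selenow, a small selenoprotein, had levels of 7.37, 7.41, 7.11 and 7.22 in the DNOP samples, against a lowest of 7.82, a median of 9.03 and a highest of 9.94 in the controls. The groups did not overlap, and control replicate 1 lay between the DNOP samples and the other controls, whose lowest was 8.57. The gene fell by 1.72 (SE 0.4, 3.30-fold lower; limma adjusted p = 0.0362). Scly, the lyase that recovers selenium from selenocysteine, had levels of 9.15, 9.19, 9.07 and 9.18 in the DNOP samples, against a lowest of 9.21, a median of 9.81 and a highest of 10.16 in the controls. It fell by 0.64 (SE 0.145; adjusted p = 0.033), and again control replicate 1 was the control nearest to the DNOP samples.

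Gnai2, Ap2a1 and Asgr2 fell as well. Gnai2, an inhibitory G protein subunit, had levels of 7.68, 7.74, 7.75 and 7.81 in the DNOP samples, against a lowest of 8.23, a median of 8.97 and a highest of 9.54 in the controls. These groups did not overlap, and the gene fell by 1.20 (SE 0.252, 2.30-fold lower; limma adjusted p = 0.0178). Ap2a1, a subunit of the clathrin adaptor AP-2, fell by 1.30 (adjusted p = 0.0383). Asgr2, a subunit of the asialoglycoprotein receptor with which hepatocytes clear blood glycoproteins, averaged 8.95 ± 0.40 in the DNOP samples and 10.50 ± 0.61 in the controls (SD, n = 4 and 10). It fell by 1.54 (adjusted p = 0.00945) with overlap of the groups, missed the threshold with the replicate block (adjusted p = 0.0658), and was named after its values were seen.

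Ip6k2, which makes inositol pyrophosphates, had levels of 5.44, 5.07, 5.08 and 5.33 in the DNOP samples, against a lowest of 6.07, a median of 6.78 and a highest of 7.54 in the controls. It fell by 1.64 (SE 0.379, 3.11-fold lower; limma adjusted p = 0.0362). Scaf1, a factor that links splicing to RNA polymerase, fell by 1.33, Jund, a subunit of the transcription factor AP-1, by 1.25, and Tmsb10, which holds actin monomers, by 1.20 (adjusted p = 0.0362, 0.0362 and 0.0369). In all of these the 4 DNOP samples were below all 10 controls. Tmsb10 was detected in 2 of 4 DNOP samples and 6 of 10 controls, but its detection p did not follow its signal.

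Il18bp, a decoy that binds the cytokine IL-18, had levels of 5.11, 5.38, 5.19 and 5.72 in the DNOP samples, against a lowest of 5.87, a median of 6.24 and a highest of 6.64 in the controls. It fell by 0.87 (SE 0.165, 1.83-fold lower; limma adjusted p = 0.00945) with no overlap. Hacd4, a dehydratase of very long chain fatty acid synthesis, fell by 0.72 (adjusted p = 0.00945). Zbp1, a sensor of Z-form nucleic acids, passed as well (adjusted p = 0.00945), but it was above background in none of the DNOP samples and in 2 of 10 controls, so no fold is given. Other called falls were Gm5347, Mrgprg and Olfr724, by 0.70 to 0.76, and the later-named Pym1, Get3, Dusp10 and N6amt1, by 0.48 to 1.25. Sf3a2 also passed, but it was above background in none of the DNOP samples and in 7 of 10 controls, so no size is given. With the replicate block Olfr724, Mrgprg, Pym1, Get3, Dusp10, N6amt1 and Sf3a2 missed the threshold (adjusted p = 0.0598, 0.0728, 0.0598, 0.0687, 0.0598, 0.0598 and 0.127).

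**Figure D4:**
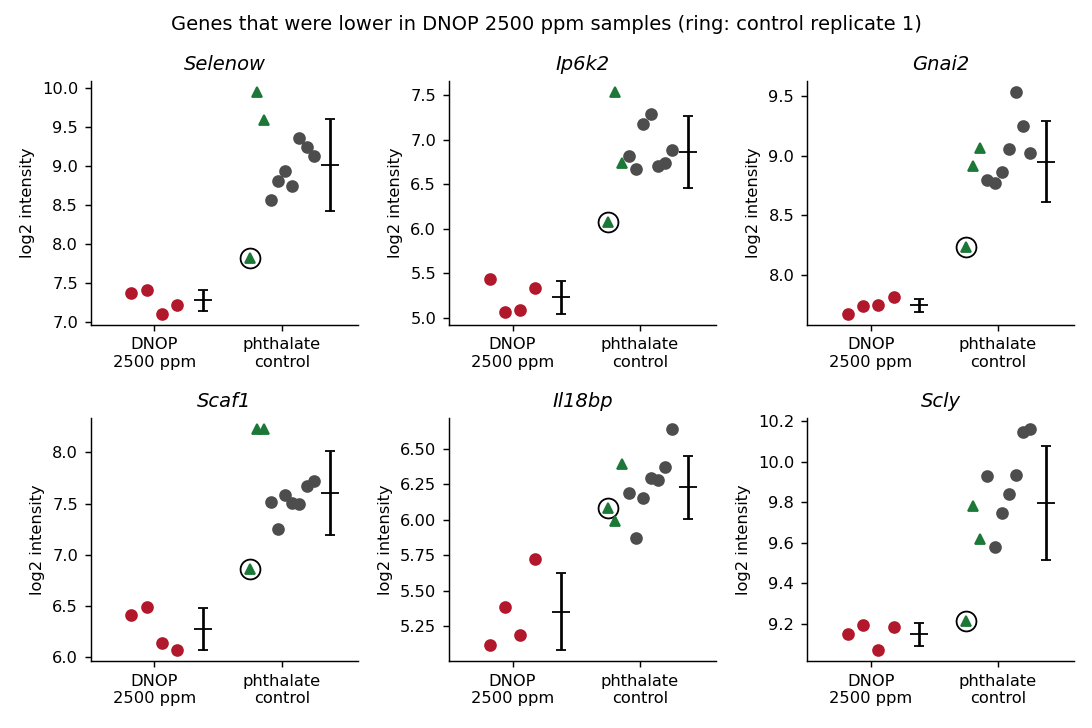
The log2 intensity (y axis) of 6 genes called lower is shown in single samples, with DNOP 2500 ppm on the left of each panel and the phthalate controls on the right, where a ring marks control replicate 1, triangles mark the 3 controls numbered 32 and bars give the mean and SD. The 4 DNOP samples lay below all 10 controls in each panel, and in all panels but that of Il18bp control replicate 1 was the control nearest to them.

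Control replicate 1 was the lowest control in 13 of the 21 called falls, and without it all 21 had groups that did not overlap. The part of this sample in the falls was not tested beyond the fit without it, in which all of them passed. The falls also depended on the scaling. With each array centred on its median in place of quantile normalization, 7 genes were called higher and 3 lower, against 6 and 21, and the median change of all genes moved to 0.15. Selenow, Ip6k2, Scaf1, Ap2a1, Jund, Gnai2, Tmsb10 and Il18bp kept a negative change under that scaling but missed the threshold (Selenow −1.43, adjusted p = 0.129, and Gnai2 −0.89, adjusted p = 0.219).

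Without the controls numbered 32, 14 further genes were called lower. They include Calr, a calcium-binding chaperone of the endoplasmic reticulum, with a change of −1.40 (limma adjusted p = 0.0333) against −1.06 (adjusted p = 0.242) with all controls, and Tkfc, the triokinase of fructose breakdown, with −1.26 (adjusted p = 0.0104) against −1.10 (adjusted p = 0.0562). Calr was the 1 called gene among 20 of endoplasmic reticulum chaperones and stress, beside 0.512% of all genes in that fit. The median change of these 20 genes in it was −0.20. Samd4b, an RNA-binding protein, had −0.82 (adjusted p = 0.0126) against −0.72 (adjusted p = 0.0544), and it passed against all controls with the replicate block (adjusted p = 0.0193) but not with the mean of the samples that share a number (adjusted p = 0.138).

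The lists of other pathways held no called gene against all 10 controls. Of 32 tested cell cycle genes 0 were called, beside 0.238% of all genes, and 7 of them were detected in none of the DNOP samples or controls. At an unadjusted p under 0.05, 0 were higher and 1 lower, with a median change of 0.02 (limma). Top2a, a topoisomerase of dividing cells, had a change of 0.004 (adjusted p = 0.9996), but its levels of 4.32 to 4.74 were close to background. Ccnd1, the cyclin that starts the cycle, had 0.16 (adjusted p = 0.943). No absence of cell division is read from these values. The acute phase genes had a median of −0.09, the male-biased liver genes −0.15, the cholesterol genes 0.09 and the mitochondrial respiratory chain 0.06. Without the controls numbered 32 these medians were −0.26, −0.18, −0.19 and 0.06. Of the panel, Serpina12, C9 and Hsd3b5 had changes of −0.21, −0.28 and 0.04, and none passed.

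Next to the other DNOP doses, 0 genes differed between 2500 ppm and any of them in limma. At an unadjusted p under 0.05 there were 417 genes against 1.25K (3.68%), 163 against 5000 ppm (1.44%) and 382 against 10000 ppm (3.37%), each percent of all genes tested. Set against the same 10 controls, 0 genes were called at 1.25K, 24 at 5000 ppm (0.212%) and 7 at 10000 ppm (0.0618%). Without those numbered 32 these numbers were 3 (0.0265%), 80 (0.706%) and 31 (0.274%). The 10000 ppm group had 3 samples and the groups at 1.25K and 5000 ppm had 4 each, so a lower number of calls does not show a smaller change. These comparisons share their controls, so their values are given side by side and no overlap of genes is read from them.

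For Cyp4a14, Acot1, Ehhadh and Cyp4a12b the estimates were ordered by dose. These genes were picked with the data known, Cyp4a12b for its call at 2500 ppm, and the order was not tested. List medians were so ordered for omega hydroxylases, thioesterases and peroxisomal fatty acid oxidation. They were not for mitochondrial fatty acid oxidation (0.08, 0.18, 0.29 and 0.24) or CAR and PXR targets (0.07, 0.17, 0.03 and 0.09). The change of Cyp4a14 against the controls was 0.38 at 1.25K, 2.62 at 2500 ppm, 3.87 at 5000 ppm and 4.32 at 10000 ppm, and the last 2 passed (limma adjusted p = 0.0158 and 0.012). Without the controls numbered 32 it was 1.74, 3.98, 5.23 and 5.68. Directly, 2500 ppm minus 1.25K was 2.23 (95% interval 0.37 to 4.10), minus 5000 ppm −1.25 (−3.12 to 0.61) and minus 10000 ppm −1.70 (−3.72 to 0.31), and none passed after adjustment. Acot1 had 1.20, 2.03, 2.38 and 2.96 at these doses, and Ehhadh 0.35, 1.43, 2.00 and 2.50, and for both the last 2 passed. Cyp4a12b had 1.29, 1.57, 1.596 and 1.94, and all but the lowest dose passed. Its direct difference between 2500 and 5000 ppm was −0.02 (95% interval −0.75 to 0.70).

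The falls are described at the other doses with no test of their order, since they were chosen for a low level at 2500 ppm, which by itself can make that dose the lowest. The change of Selenow was −0.18 at 1.25K, −1.72 at 2500 ppm, −1.56 at 5000 ppm and −0.13 at 10000 ppm, and it passed at 2500 ppm alone of these doses (limma adjusted p = 0.997, 0.0362, 0.0874 and 0.993). The direct difference of 2500 ppm from 1.25K was −1.55 (95% interval −2.48 to −0.61), from 5000 ppm −0.16 (−1.10 to 0.77) and from 10000 ppm −1.59 (−2.60 to −0.58), and none passed after adjustment. Scly had 0.01, −0.64, −0.45 and 0.09, Scaf1 had −0.25, −1.33, −0.96 and −0.02, and Gnai2 −0.37, −1.20, −0.95 and −0.40. Of the 21 named calls, the lowest adjusted p of such a direct difference was 0.119 against 1.25K, 0.9998 against 5000 ppm and 0.645 against 10000 ppm.

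**Figure D5:**
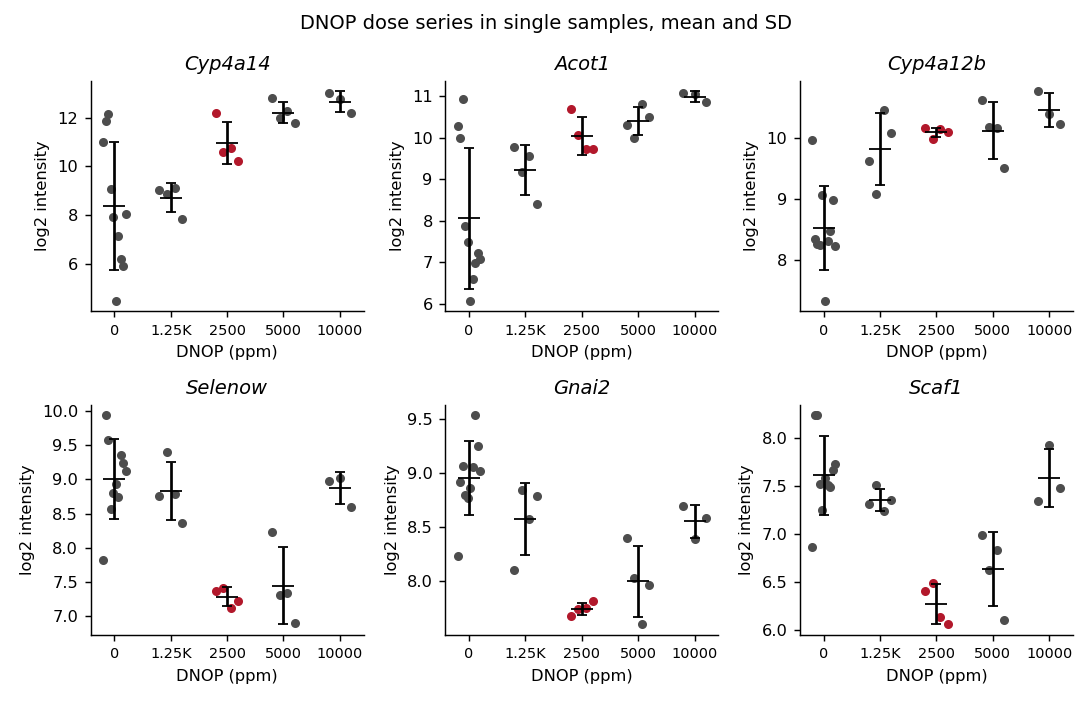
The log2 intensity (y axis) of 6 genes is shown against the DNOP dose in ppm (x axis), with 0 for the 10 phthalate controls, 2500 ppm in red, a point per sample and bars for the mean and SD. Cyp4a14 and Acot1 had their highest means at 10000 ppm, while Selenow, Gnai2 and Scaf1 were lowest at 2500 and 5000 ppm.

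The branched isomer di(2-ethylhexyl) phthalate (DEHP) was given at 3000 ppm, a dose that differs from 2500 ppm, so values are side by side only. Against the same controls, 957 genes were called at 3000 ppm DEHP (8.45%), and 936 without the controls numbered 32 (8.27%). Cyp4a14 had a change of 2.62 with DNOP and 5.08 with DEHP, Acot1 2.03 and 4.54, and Ehhadh 1.43 and 4.94. Pdk4 had 0.38 with DNOP and 2.80 with DEHP, and Cyp3a11, a P450 of drug metabolism, 0.86 and 3.61. Selenow had −1.72 with DNOP and −0.99 with DEHP, and Il18bp −0.87 and −0.53.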

How the data were processed

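The deposited signal is, per the file headers, a bead average for each gene on each array, a linear intensity, and comes with a deposited detection p-value. A second deposited table has an intensity normalized by the authors, with the method not given in the sources used here. Per the labels, biotin cRNA was made from total RNA.

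The signal was background corrected with limma 3.58.1 (R 4.3.3; normexp, offset 16), with the background of each array taken from the detection p-values on the grid of 798 negative controls, then set to log2 and quantile normalized. Genes with a detection p under 0.05 on at least 3 arrays were tested (11324 of 18138). The 77 samples of 18 groups were fitted together in limma, with the label number as a random block (correlation 0.0992), and p-values were adjusted by Benjamini-Hochberg at 0.05. Array IDs were matched to current symbols through RefSeq, 14307 as symbols and 2680 as synonyms.

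Members, gene lists and tests were chosen with earlier results of these data known. Named genes were a panel, the 15 largest rises and 15 largest falls among calls (those without overlap first), where under 15 were called the 10 of each direction with the smallest p, and members of each list with the strongest calls or smallest p. Not all of these are described. Another called gene is counted but not reported here. Same-numbered replicates (REP in the labels) correlated at 0.439, 0.121, 0.226 and 0.196 in their deviations, all above 0.1, though replicate 4 correlated better with another number (0.235). By this rule a fit with the replicate number as a block is given where it changes a call. In that fit the replicate number is a fixed effect that takes the place of the random block. Samples that share a label number are then treated as independent. On simulated data for this comparison (11324 genes), 89% of log2 changes of 1 and 100% of changes of 2 were recovered, with 10 false calls of 199. The simulated noise was independent between samples, with no split among the controls, and 100 brighter genes were changed by each size. These shares therefore do not tell how many changes of such size were missed in the real samples. The number of arrays limits the precision.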

Additional observations from a re-analysis of the deposited data

Results flagged for a closer look

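Single samples stood apart from their group in 7 of 100 sets of values examined, and chance gives about 1 in 20. A set was the level of a gene in a group or, in 4 cases, the percent detected or mean signal of a group. All 7 were levels of genes. A sample was marked where its gap to the next sample was larger, as a share of the range of its group, than Dixon's test allows at 95%. Acot3, a peroxisomal thioesterase, was at 7.89 in DNOP replicate 1, with the other DNOP samples at 4.71 to 4.87. Acaa1b was at 13.9 in DNOP replicate 3, against 13.61 to 13.66 in the others. Control replicate 1 was the marked sample in 4 cases, highest for Cyp2b10 (4.76) and lowest for Bhmt, a methyltransferase of methionine metabolism (8.10), Ap2a1 (6.17) and Tmsb10 (6.58). Cyp2c55, a P450 under CAR, was highest in control replicate 4 (6.34).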

How the results depend on the processing

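Against the controls, 27 genes were called (6 higher, 21 lower). The number moved by over 1.5 times to 58 without the controls numbered 32, 15 with the mean of the samples that share a number, 16 with the background of neqc, 10 with each array centred on its median (7 higher, 3 lower), 13 with no filter on dim genes and 225 with array quality weights (84 higher, 141 lower). Leaving out 1 sample gave 1 to 54 calls. With the replicate number as a block 38 genes were called, 17 of them shared with the 27, and other changes of calls by this block among named genes were gains of Cygb (−0.93, adjusted p = 0.0158) and Mospd3 (−1.17, adjusted p = 0.0463). It stayed between 20 and 37 with no random block (37), only the 2 groups in the fit (20), no background correction (22), an offset of 50 (25), the deposited matrix (23), the other detection filter (27) and an unmoderated statistic (25). The cause of these moves was not tested. The dose comparisons had 0 calls under each alternative and each left-out sample, except 1 against 10000 ppm without the controls numbered 32, a setting added after seeing the data. No named gene that was called changed direction under these alternatives. Dim genes limit the comparison, since their folds move with the background.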
